A study of Homo sapiens with 4 samples.

Results

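Translation initiation factor transcripts were followed through an RNA immunoprecipitation of the m6A reader YTHDF3 in breast cancer cells. The genes were chosen by name alone: every gene whose symbol starts with EIF and a digit from 1 to 6, leaving out symbols that end in P and a number. Of 36203 gene identifiers, 130 had the prefix, and 75 of these ended in P and a number. Those 75 were 72 pseudogenes and the 3 genes of the eIF4E-binding proteins, EIF4EBP1, EIF4EBP2 and EIF4EBP3, which are described with the regulators at the end. This left 55 genes: 14 of EIF3, 13 of EIF4, 6 of EIF5 and EIF6, 5 each of EIF1, EIF2 and EIF2B, 4 eIF2 kinase genes (EIF2AK1 to EIF2AK4) and 3 noncoding RNAs with an antisense symbol named after an EIF gene.

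The cells are labelled MDA-MB-231, a breast cancer line without hormone receptors, while MDA-MB-231Br, a brain-seeking derivative, stands in the growth protocol. All 4 libraries came from cells grown in the same serum-containing DMEM: 2 libraries of input RNA, with no antibody, and 2 libraries of RNA pulled down by an anti-YTHDF3 antibody (RIP). The extraction text in the labels mentions embryos and m6A immunoprecipitation, unlike the cells and antibody named for these samples. The labels name no separate cultures, so each p-value weighs a difference against library-to-library spread that may be technical only, and a RIP with a control antibody was not analysed here.

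Initiation begins when eIF2 carries the initiator tRNA to the small ribosomal subunit, helped by eIF1, eIF1A, eIF5 and the large scaffold eIF3. The eIF4 proteins bind the mRNA cap, unwind the leader and bring the mRNA to that complex, and eIF5B then joins the large subunit. eIF2B recharges eIF2 with GTP, and the stress kinases that phosphorylate eIF2 turn eIF2B off. YTHDF3 is a reader of N6-methyladenosine (m6A) in cytoplasmic mRNA and has been linked to both translation and decay of its targets.

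Values are FPKM, reads scaled to gene length and to the library total, as far as the deposited values show. For a given gene, FPKM follows its share of the reads of a library, not its share of the RNA molecules, and in RNA from a whole culture fewer cells with a transcript cannot be told apart from less of it per cell. The line's markers VIM, CD44, EGFR, AXL and CAV1 lay at 75.3 FPKM or more in both inputs. ESR1, CDH1, PTPRC and ALB were listed at 0 in all 4 libraries, PGR did not exceed 0.118 and ERBB2 lay at 9.07 and 5.77 in the inputs. The smallest step between low values put the depth of input 1, input 2 and RIP 1 at about 1.98, 2.35 and 3.34 times that of RIP 2. RIP 2 stood apart in another way too: genes of chromosome 1 took 35.9% of FPKM times gene length there, against 9.20% to 10.6% in the other libraries. The median of log2(RIP 2) minus log2(RIP 1) over protein-coding genes was 1.67 on chromosome 1 and 0.67 on chromosome 10, while the other nuclear chromosomes lay between -0.91 and -0.34. This touches 6 initiation factor genes: EIF2B3, EIF2D, EIF3I and EIF4G3 on chromosome 1, and EIF3A and EIF5AL1 on chromosome 10.

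On the deposited scale, initiation factor transcripts were more often lower than higher in the YTHDF3 RIP. Of the 55 genes, 50 reached 1 FPKM in at least 2 libraries and were tested with limma on log2(FPKM + 1) among 12848 genes, with two-sided p-values adjusted by Benjamini-Hochberg and a threshold of 0.05. Of the 50, 19 were lower in RIP, where 24.3% of all genes tested were lower. Higher in RIP were 2, EIF2B1 and the noncoding RNA EIF3J-AS1, where 15.4% of all genes tested were higher, and 29 did not pass. The median log2 fold change of the 50 was -1.04, against -0.10 over all genes tested and 0.12 over protein-coding genes, of which 19.8% were lower and 16.8% higher. Both RIP values lay below both inputs for 33 of the 50 (40.1% of all genes tested) and above them for 6 (35.7% of all genes tested), and the groups overlapped for 11. Summed over the 50 genes, the FPKM were 3504 and 3980 in the inputs and 1552 and 1991 in RIP. The sum over all genes fell with it, from 700141 and 690869 in the inputs to 301226 and 301483 in RIP, while the sum over protein-coding genes was 323064 and 319567 in the inputs and 279151 and 286220 in RIP. The 50 genes thus held 0.501% and 0.576% of all summed FPKM in input and 0.515% and 0.660% in RIP, which overlap. Of the FPKM of protein-coding genes they held 1.09% and 1.25% in input and 0.556% and 0.696% in RIP, which do not. Because every RIP was compared with the same 2 inputs, the members' values are not independent of each other.

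**Figure D1:**
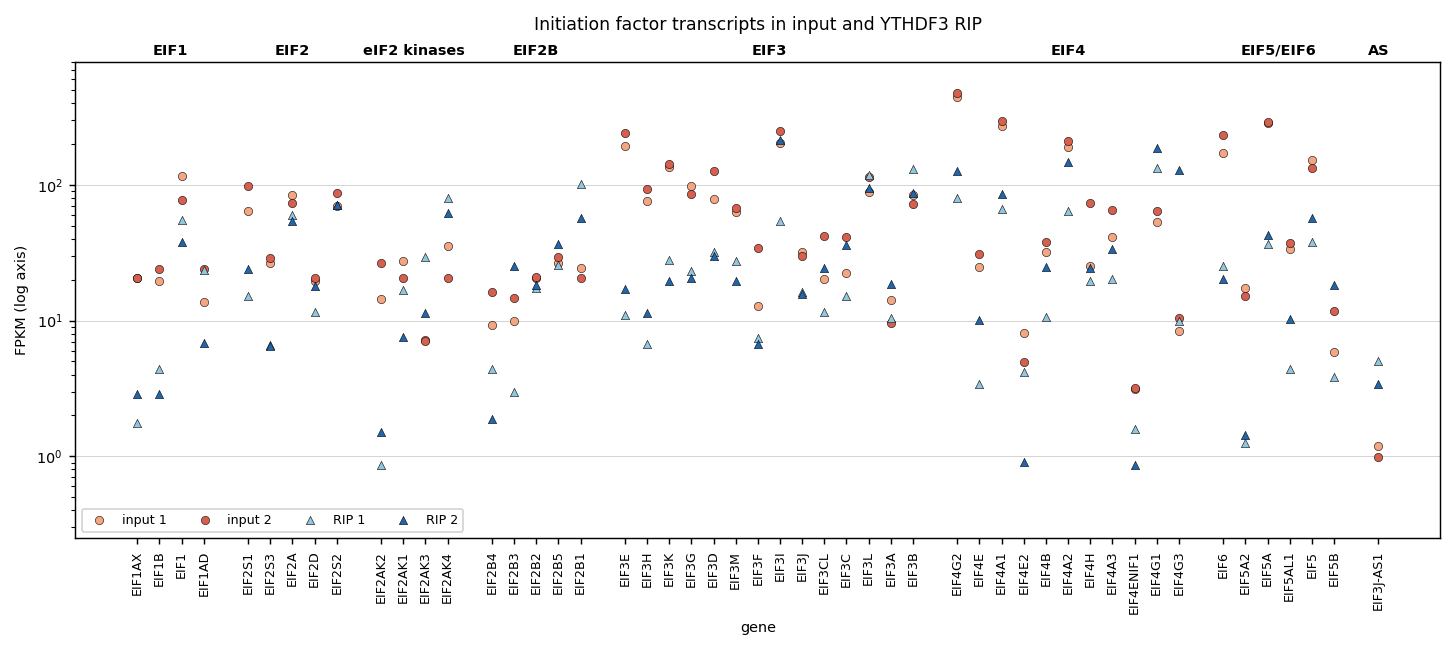
FPKM (log axis) of the 50 initiation factor genes tested in each library, with inputs as circles and YTHDF3 RIP libraries as triangles, in groups and ordered by fold change within each. For EIF3E the inputs lie at 195 and 242 and the RIP libraries at 10.99 and 17.0, while for EIF2B1 the RIP libraries, at 102 and 57.0, lie above the inputs.

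The direction of many of these differences depends on what the libraries are scaled to. When each library was scaled to the same summed FPKM over all genes, an alternative chosen after seeing the data, the median of all genes moved from -0.10 to 0.88 and that of the 50 genes from -1.04 to 0.14. Then 7 initiation factor genes were lower, against 12.1% of all genes, and 6 were higher, against 35.8%. The share of higher genes among all calls went from 38.8% to 74.8%, and with the sum over protein-coding genes to 45.3%. EIF1AX, EIF2AK2, EIF3E, EIF3H, EIF5A, EIF5A2 and EIF6 remained lower, EIF2B1 and EIF3J-AS1 remained higher, and EIF2AK3, EIF2AK4, EIF3B and EIF4G1 joined them. The other 12 lower calls were lost, and 16 genes that had no call changed sign. Scaled to the same sum over protein-coding genes, 16 were lower and 3 higher, against 21.9% and 18.2% of all genes. The median of the 50 genes was then -0.85, against 0.05 for all genes. EIF3D, EIF3M and EIF5 lost their calls there, and the sign of 1 of the 50 genes changed. Under quantile normalization and with median-of-ratios size factors the sign of 0 genes changed, with medians of -0.92 and -1.09. Fold changes from here on are on the deposited scale unless said otherwise, and every fall or rise named is relative to it.

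The calls also rest on having both inputs. Without input 1, limma called 0 of 12848 genes in either direction (at an unadjusted p under 0.05 it had 737 higher and 2299 lower), and 10 initiation factor genes were lower at that unadjusted p. Without input 2 it again called 0 (608 higher and 2257 lower unadjusted), with 9 initiation factor genes lower. Leaving out a RIP library raised the counts of calls, and the spread was then taken from the inputs alone. The median SD over all genes tested was 0.25 in input and 0.54 in RIP on the log2 scale. Calls kept or gained without a RIP library therefore do not show that a result holds in each. The median log2 fold change of the 50 genes was -1.22 without RIP 1 and -1.29 without RIP 2. Quantile normalization of the libraries moved the median of all genes from -0.10 to 0.13 and the share of higher genes among all calls from 38.8% to 52.1%. Under it 17 initiation factor genes were lower and 3 higher, against 22.0% and 24.0% of all genes tested. The median of the 50 genes was -0.92. Without a filter on low values, when 18496 genes were tested, EIF3D, EIF3M, EIF4A1, EIF4E, EIF4G2 and EIF5 lost their lower calls and EIF2B1 and EIF3J-AS1 their higher ones, with adjusted p from 0.0553 to 0.102.

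The start of the mRNA is a feature the choice of genes did not use. Many mRNAs of the translation machinery begin with a C followed by a run of pyrimidines, the terminal oligopyrimidine (TOP) motif through which mTOR and LARP1 control their translation. RefSeq has a start-site window for 41 of the 50 genes tested. A C followed by 4 bases that are each C or T, read on the gene's strand from the annotated start, stood in 9 of the 41 (21.95%), against 5.59% of 8648 protein-coding genes tested and 4.04% of 27305 RefSeq windows. The 9 starts that carry this shared feature are given as 10 bases before the start and 20 from it, 5′ to 3′, with the pyrimidine run at the start in capitals (RefSeq, GRCh38.p14).
EIF2A, chr3:150546777-150546806, plus strand: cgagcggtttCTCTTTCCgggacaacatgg
EIF2D, chr1:206612446-206612475, minus strand: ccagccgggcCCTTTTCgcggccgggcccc
EIF2S3, chrX:24054946-24054975, plus strand: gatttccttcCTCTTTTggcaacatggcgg
EIF3D, chr22:36529147-36529176, minus strand: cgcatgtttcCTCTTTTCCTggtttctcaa
EIF3F, chr11:7987327-7987356, plus strand: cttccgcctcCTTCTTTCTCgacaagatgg
EIF3K, chr19:38619178-38619207, plus strand: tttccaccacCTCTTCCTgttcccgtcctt
EIF3M, chr11:32583821-32583850, plus strand: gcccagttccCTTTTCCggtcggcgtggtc
EIF4A2, chr3:186783567-186783596, plus strand: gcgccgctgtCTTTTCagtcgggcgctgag
EIF4B, chr12:53006446-53006475, plus strand: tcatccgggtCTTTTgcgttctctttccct

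For contrast, the start of EIF2B1, the protein-coding member that was higher in RIP, and of EIF4G1, the scaffold with the largest fold change among genes whose RIP values both lay above the inputs without a call, carried no such run.
EIF2B1, chr12:123633667-123633696, minus strand: gtacggaagtgcgccggaagtggggtgcgg
EIF4G1, chr3:184314596-184314625, plus strand: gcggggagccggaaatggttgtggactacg

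All 9 genes with the run had both RIP values below both inputs, and 4 of them were called lower (EIF3K, EIF2S3, EIF3D and EIF3M), calls that were lost with equal summed FPKM over all genes. Their median log2 fold change was -1.44. Of the 32 genes tested with a window and no such run, 12 were lower and 1 was higher, with a median of -0.996. Both RIP values lay below both inputs for 20 of these 32, and for 40.1% of all genes tested. The 9 genes with the run were more abundant in input, with median FPKM of 63.4 and 67.2 against 24.9 and 29.6 for the 32. Among protein-coding genes, 23.7% were lower from 10 to under 30 FPKM in input and 38.3% from 30 to under 100. Whether the run goes with the fold change at equal input level was not tested. Genes tested without a window include EIF3E, EIF3G and EIF3H, which were called lower, and EIF3J-AS1, which was called higher. Among all protein-coding genes tested, 28.0% of those with the run were lower and 19.1% of those without. With initiation factor and ribosomal protein genes set aside, 21.1% of the remaining 431 genes with the run were lower. A letter match at an annotated start does not show that these mRNAs start there in these cells.

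**Figure D2:**
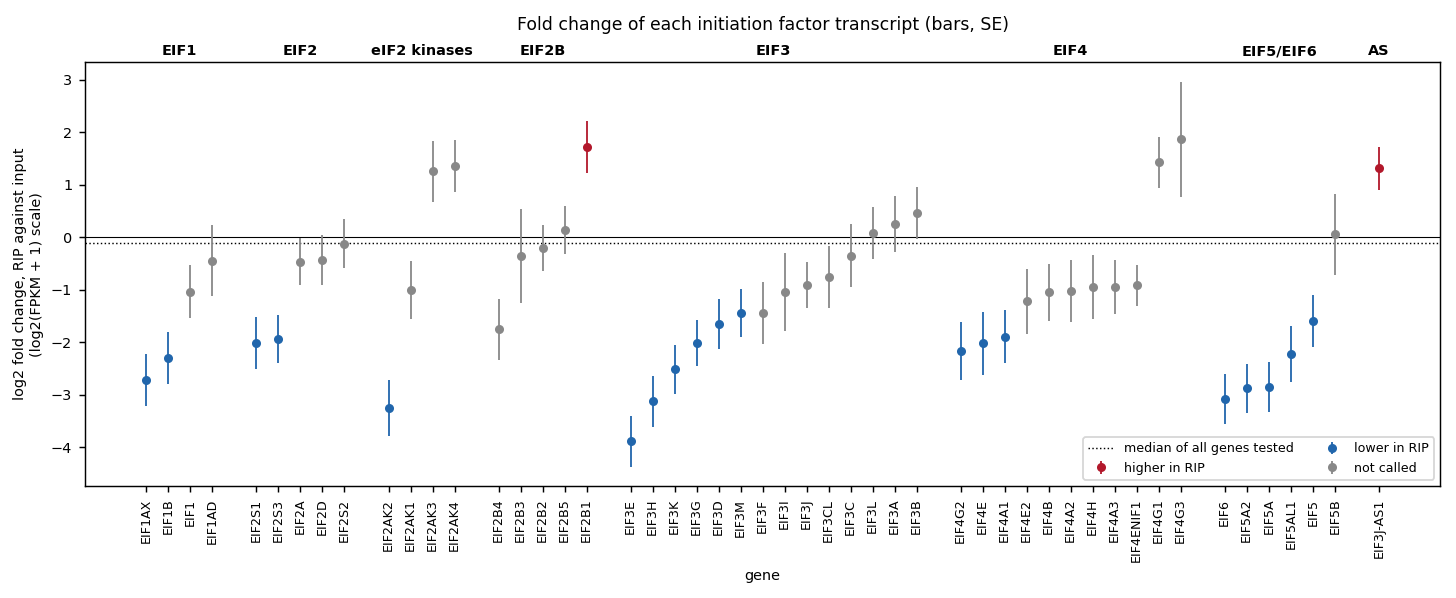
Log2 fold change of RIP against input for the 50 genes tested, on the log2(FPKM + 1) scale, with bars of 1 SE from limma (2 libraries a group). Genes lower in RIP are blue, higher red and not called grey, and the dotted line is the median of all genes tested, -0.10. EIF5 and EIF6 genes lie lowest as a group, with 5 of 6 lower, against 24.3% of all genes tested. When libraries are scaled to equal summed FPKM over all genes, 3 of 6 are lower, against 12.1%.

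Among the eIF4 genes, which handle the mRNA cap, 3 of 11 tested were lower in RIP, near the 24.3% of all genes, and 0 were higher (1 gene, EIF4G1, at an unadjusted p under 0.05). Their median log2 fold change was -1.03, and 0.10 with equal summed FPKM over all genes, where 0 were lower (0 also at an unadjusted p under 0.05) and 1 was higher. EIF4E, the cap-binding protein, had 24.7 and 30.8 FPKM in input and 3.42 and 10.1 in RIP. It fell by 2.03 on the log2 scale (SE 0.59, adjusted p = 0.0382), with no overlap between the groups, and the call is lost with a pseudocount of 0.1 (adjusted p = 0.0526) or with size factors (adjusted p = 0.0515). EIF4A1, the helicase that unwinds leaders, had 272 and 295 FPKM in input and 66.1 and 85.7 in RIP. It fell by 1.90 (SE 0.50, adjusted p = 0.0296), although under quantile normalization its adjusted p was 0.0584. On the same strand, AC016876.2 and SENP3-EIF4A1 overlap 41.1% and 29.8% of its exon length. The small nucleolar RNAs SNORA48, SNORA67 and SNORD10 overlap 2.54% to 2.67% each, and each was below both inputs in both RIP libraries. SNORA48 had 220 and 274 FPKM in input and 37.9 and 0 in RIP. The part of such reads in the EIF4A1 value was not tested.

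Of the 3 scaffold genes of the eIF4 group, 1 was called. EIF4G2 (chromosome 11, 10797050 to 10809110, minus strand, GRCh38), a relative of eIF4G that does not bind eIF4E, was the most abundant initiation factor transcript in input, with 442 and 476 FPKM in input and 79.8 and 127 in RIP. It fell by 2.18 (SE 0.55, adjusted p = 0.0266), and it did not pass under quantile normalization (adjusted p = 0.0734). The small nucleolar RNA SNORD97 overlaps 1.41% of the EIF4G2 exon length on the same strand. SNORD97 had 190 and 285 FPKM in input and 10.1 and 2.27 in RIP, and its part in the EIF4G2 value was not tested. EIF4G1 (chromosome 3, 184314495 to 184335358, plus strand), the main scaffold that joins eIF4E, eIF4A and eIF3, had 53.7 and 64.4 FPKM in input and 134 and 189 in RIP. Both RIP libraries were above both inputs, and the log2 ratio of RIP to input was 1.42 (SE 0.49), with an adjusted p of 0.0588 that missed the threshold. Under quantile normalization the adjusted p was 0.0408. EIF4G3, the paralog on chromosome 1, showed 8.38 and 10.48 FPKM in input and 9.89 and 130 in RIP. Only RIP 2 stood above the inputs, by 3.66 on the log2 scale against 0.07 for RIP 1, and RIP 2 is the library with the excess on chromosome 1. The part of that excess in the value was not tested.

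The other 6 eIF4 genes tested lay between -1.22 and -0.92 and none passed, although both RIP values were below both inputs for each. They are EIF4E2, a cap-binding repressor, EIF4A2, the second eIF4A helicase, EIF4A3, the helicase of the exon junction complex, EIF4B and EIF4H, helpers of eIF4A, and EIF4ENIF1, a partner of eIF4E in mRNA storage and decay. EIF4A2 went from 190 and 211 FPKM in input to 63.9 in RIP 1 and 148 in RIP 2, so the RIP libraries differed from each other by more than the inputs did. EIF4E3, an eIF4E paralog, was not tested, with 0.980 and 1.07 FPKM in input and 0.135 and 0.129 in RIP, and EIF4E1B was listed at 0 in all 4 libraries.

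eIF3 is the largest initiation factor, and 6 of its 14 genes were lower in RIP and 0 were higher (0 at an unadjusted p under 0.05), with a median of -1.24. The shares over all genes tested were 24.3% lower and 15.4% higher. The summed FPKM of the 14 eIF3 genes were 1123 and 1351 in the inputs and 494 and 618 in RIP. This was 0.161% and 0.196% of all summed FPKM in input against 0.164% and 0.205% in RIP, but 0.348% and 0.423% of that of protein-coding genes in input against 0.177% and 0.216% in RIP. With equal summed FPKM over all genes, 2 were lower and 1 was higher, against 12.1% and 35.8% of all genes, and the eIF3 median was -0.06. The largest fall among the initiation factors on the log2(FPKM + 1) scale was that of EIF3E (chromosome 8, 108201216 to 108435333, minus strand), a subunit of the eIF3 core. It had 195 and 242 FPKM in input and 10.99 and 17.0 in RIP, a 15.6-fold lower mean (17.3-fold for EIF2AK2, which has lower FPKM). It fell by 3.89 (SE 0.48, adjusted p = 0.00873), and it went from the 2nd highest of the 14 eIF3 genes in input to the 12th in RIP. EIF3H, another core subunit, stood at 75.9 and 93.3 FPKM in input and at 6.70 and 11.3 in RIP. It fell by 3.13 (SE 0.48, adjusted p = 0.00973). For both genes even the lower input lay far above the higher RIP value.

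EIF3K, a small core subunit, had 135 and 143 FPKM in input and 28.1 and 19.7 in RIP, and fell by 2.52 (SE 0.47, adjusted p = 0.0131). EIF3G, which helps scanning, had 98.5 and 85.6 FPKM in input and 23.2 and 20.7 in RIP, and fell by 2.02 (SE 0.45, adjusted p = 0.0188). In each of them the RIP libraries were close to each other and well apart from the inputs. EIF3D, a subunit that can itself bind the cap of some mRNAs, had 78.3 and 126 FPKM in input and 31.9 and 30.02 in RIP, and fell by 1.65 (SE 0.48, adjusted p = 0.0384). EIF3M had 63.4 and 67.2 FPKM in input and 27.7 and 19.7 in RIP, and fell by 1.44 (SE 0.46, adjusted p = 0.0472). The groups did not overlap for either, but EIF3M lost its call with a pseudocount of 0.1 (adjusted p = 0.0523).

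The remaining eIF3 genes did not pass. EIF3B, a scaffold subunit that binds the small ribosomal subunit, had the highest log2 fold change of the group, 0.46 (SE 0.49, adjusted p = 0.470), with 83.6 and 72.2 FPKM in input and 131 and 87.8 in RIP. It ranked 8th of the 14 eIF3 genes in input and 2nd in RIP. EIF3A and EIF3L had log2 fold changes of 0.25 and 0.08, and EIF3F, EIF3I, EIF3J, EIF3CL and EIF3C lay between -1.44 and -0.36. EIF3I, on chromosome 1, showed 204 and 250 FPKM in input, 54.6 in RIP 1 and 215 in RIP 2, so RIP 1 lay below the inputs and RIP 2 between them. EIF3C and EIF3CL share 95.6% of the 50-base stretches of the EIF3C transcript, so reads of one could not be told from reads of the other, and without EIF3CL the median of the eIF3 genes was -1.44.

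The genes of eIF1 and eIF1A, which keep the scanning ribosome open and check the start codon, held 2 lower and 0 higher (0 at an unadjusted p under 0.05) of 4 tested, with a median of -1.67. Among all genes tested, 24.3% were lower and 15.4% higher. EIF1AX, one of the genes for eIF1A, had 20.5 and 20.6 FPKM in input and 1.75 and 2.87 in RIP. It fell by 2.72 (SE 0.49, adjusted p = 0.0123). EIF1B, a paralog of EIF1, had 19.5 and 23.9 FPKM in input and 4.40 and 2.86 in RIP, and fell by 2.31 (SE 0.49, adjusted p = 0.0173). EIF1 itself, the most abundant of the group, was below both inputs in both RIP libraries with a log2 fold change of -1.04 that did not pass (adjusted p = 0.135). EIF1AD had 13.7 and 23.9 FPKM in input, 23.7 in RIP 1 and 6.88 in RIP 2, a log2 fold change of -0.45 with overlapping groups (adjusted p = 0.604). EIF1AY did not pass the filter.

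The subunits of eIF2 did not move as a set. EIF2S1 (chromosome 14, 67359997 to 67386516, plus strand) encodes the alpha subunit, the one that stress kinases phosphorylate. It had 64.5 and 98.9 FPKM in input and 15.1 and 23.9 in RIP, and fell by 2.02 (SE 0.50, adjusted p = 0.0252). EIF2S3, the gamma subunit that binds GTP and the initiator tRNA, had 26.7 and 29.1 FPKM in input and 6.60 and 6.48 in RIP, and fell by 1.94 (SE 0.45, adjusted p = 0.0215). EIF2S2, the beta subunit, had 69.5 and 87.6 FPKM in input and 71.7 and 71.1 in RIP, which is a change of -0.13 on the log2 scale (SE 0.46, adjusted p = 0.839). Its RIP values lay within the range of the inputs, whereas the RIP means of EIF2S1 and EIF2S3 were 0.239 and 0.234 of their input means. The difference between subunits was not tested, and 22.6% of the EIF2S2 transcript and 23.2% of that of EIF2S3 recur in other genes, mostly a pseudogene and a retrocopy.

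The 2 other proteins with an eIF2 name are not subunits of eIF2. EIF2A, which can bring the initiator tRNA by another route, had a log2 fold change of -0.47, and EIF2D, which acts in recycling and re-initiation, one of -0.44. Neither passed, although both RIP values were below both inputs for each. The 5 EIF2 genes together held 2 lower and 0 higher (0 at an unadjusted p under 0.05), with a median of -0.47. The shares over all genes tested were 24.3% lower and 15.4% higher. With equal summed FPKM over all genes the EIF2 median was 0.70. There 0 of the 5 were lower (0 also at an unadjusted p under 0.05), against 12.1% of all genes.

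eIF2B, the exchange factor for eIF2, was the group with a member that rose and none that fell: 1 higher and 0 lower of 5 (EIF2B4 was lower at an unadjusted p under 0.05), with a median of -0.21 that became 0.94 with equal summed FPKM over all genes. Among all genes tested, 15.4% were higher and 24.3% lower. EIF2B1 (chromosome 12, 123620406 to 123633766, minus strand), the regulatory alpha subunit, had 24.5 and 20.7 FPKM in input and 102 and 57.0 in RIP. It rose by 1.72 (SE 0.50, adjusted p = 0.0378), and even the lower RIP value lay well above the higher input. Without a filter on low values its adjusted p was 0.0640. Its exons overlap those of DDX55 on the other strand over 536 bases, 14.8% of its exon length, and the use of strand in counting is not given in the sources used here. DDX55 itself stood at 14.4 and 24.1 FPKM in input and 19.3 and 24.6 in RIP.

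EIF2B4, the delta subunit, had 9.26 and 16.3 FPKM in input and 4.42 and 1.87 in RIP. On the log2 scale this is -1.76 (SE 0.58), with an adjusted p of 0.0513, and it was lower under quantile normalization (adjusted p = 0.0450) and with size factors (adjusted p = 0.0358). EIF2B2 and EIF2B5, the beta and the catalytic epsilon subunits, had log2 fold changes of -0.21 and 0.13. EIF2B3, the gamma subunit, lies on chromosome 1 and split between the RIP libraries, with 2.97 FPKM in RIP 1 and 25.2 in RIP 2 against 9.91 and 14.7 in the inputs.

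The eIF2 kinases, each of which answers a different stress, differed in the sign of their fold change: 1 of 4 was lower and 0 were higher (1 gene, EIF2AK4, at an unadjusted p under 0.05), though with equal summed FPKM over all genes EIF2AK3 and EIF2AK4 were called higher. Of all genes tested, 24.3% were lower and 15.4% higher, and with that scaling 12.1% and 35.8%. EIF2AK2 (chromosome 2, 37099210 to 37157065, minus strand) encodes PKR, which senses double-stranded RNA. It had 14.5 and 26.6 FPKM in input and 0.858 and 1.52 in RIP, a 17.3-fold lower mean, and it fell by 3.26 (SE 0.54, adjusted p = 0.0107). EIF2AK4, the amino acid sensor GCN2, had 35.8 and 20.7 FPKM in input and 80.2 and 62.6 in RIP, which is 1.35 on the log2 scale (SE 0.50, adjusted p = 0.0701). Both its RIP values and both of EIF2AK3, the endoplasmic reticulum stress sensor PERK, lay above the inputs. EIF2AK3 had 7.14 and 7.04 FPKM in input, 29.3 in RIP 1 and 11.4 in RIP 2 (log2 fold change 1.26, adjusted p = 0.123). EIF2AK1, the heme-regulated kinase, lay at -1.01 (adjusted p = 0.173). The log2 fold changes of EIF2AK4 and EIF2AK3 were 1.52 and 1.90 without RIP 2, and 1.17 and 0.61 without RIP 1.

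The genes of eIF5, eIF5A and eIF6 held the largest share of lower calls, 5 of 6, with 0 higher (0 at an unadjusted p under 0.05) and a median of -2.54. Of all genes tested, 24.3% were lower. EIF5, EIF5A and EIF6 lay at 100 FPKM or more in input, where 61.2% of protein-coding genes were lower. EIF5A, EIF5A2, EIF5AL1 and EIF6 have coding regions under 1000 bases, where 38.6% of protein-coding genes were. EIF6 (chromosome 20, 35278911 to 35284985, minus strand), which keeps the ribosomal subunits apart, had 171 and 233 FPKM in input and 25.5 and 20.3 in RIP. It fell by 3.08 (SE 0.48, adjusted p = 0.00973), with an 8.83-fold lower mean. EIF5A (chromosome 17, 7306999 to 7312463, plus strand), a hypusine-carrying protein that helps the ribosome form difficult peptide bonds, had 288 and 292 FPKM in input and 36.4 and 42.5 in RIP. It fell by 2.85 (SE 0.47, adjusted p = 0.0109).

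EIF5A2, the second hypusinated eIF5A, had 17.3 and 15.3 FPKM in input and 1.26 and 1.44 in RIP, and fell by 2.88 (SE 0.47, adjusted p = 0.0106). EIF5AL1, a chromosome 10 copy of EIF5A, showed 33.7 and 37.3 FPKM in input and 4.41 and 10.3 in RIP, and fell by 2.22 (SE 0.54, adjusted p = 0.0235). Of the 50-base stretches of the EIF5A transcript, 30.1% also occur in EIF5AL1, so the pair is not independent. EIF5, the protein that triggers GTP hydrolysis by eIF2, had 153 and 133 FPKM in input and 37.9 and 57.5 in RIP, and fell by 1.60 (SE 0.49, adjusted p = 0.0432, but 0.0565 under quantile normalization). All 5 of these genes had RIP values far below the inputs in both libraries. EIF5B, the factor that joins the ribosomal subunits, was the exception, with 5.90 and 11.7 FPKM in input, 3.87 in RIP 1 and 18.4 in RIP 2. Its log2 fold change was 0.05, with an SE of 0.77 (adjusted p = 0.960), so the inputs lay between the RIP libraries.

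Of the RNAs with an antisense symbol, only EIF3J-AS1 (chromosome 15, 44527257 to 44536923, minus strand) was tested. GENCODE names it EIF3J-DT and lists it as a long intergenic RNA, and it ends before EIF3J starts at 44537057. Its exons overlap those of CTDSPL2 on the other strand over 283 bases, 8.50% of its exon length. CTDSPL2 had 13.9 and 17.4 FPKM in input and 5.94 and 5.08 in RIP. EIF3J-AS1 had 1.19 and 0.992 FPKM in input and 5.04 and 3.42 in RIP, and rose by 1.31 (SE 0.41, adjusted p = 0.0465). The call was lost with a pseudocount of 0.1 (adjusted p = 0.0703) and without a filter (adjusted p = 0.102). EIF3J, the neighbouring coding gene, went the other way, with 32.0 and 30.03 FPKM in input and 16.4 and 15.7 in RIP, a log2 fold change of -0.91 that did not pass (adjusted p = 0.135). EIF1AX-AS1 was listed at 0 in all 4 libraries, and EIF1B-AS1 at 0.392 in input 1 and 0 in the others.

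Set side by side, lower calls made up 6 of 14 eIF3 genes, 3 of 11 eIF4 genes, 2 of 5 EIF2 genes and 0 of 5 eIF2B genes, where the share among all genes was 24.3%. The medians ran from -1.24 for eIF3 and -1.03 for eIF4 to -0.47 for EIF2 and -0.21 for eIF2B. With each RIP library taken singly the medians were -1.22 and -1.32 for eIF3, -0.80 and -1.31 for eIF4, -0.54 and -0.74 for EIF2, and 0.39 and -0.24 for eIF2B, each pair giving RIP 2 and then RIP 1. The order of eIF3, eIF4, EIF2 and eIF2B was thus the same in both libraries, which share the inputs, while the sign for eIF2B was not. Outside chromosomes 1 and 10 the order changed. The medians there were -1.44 for eIF3, -1.20 for EIF2, -1.04 for eIF4 and -0.04 for eIF2B. With equal summed FPKM over all genes the medians were -0.06 for eIF3, 0.10 for eIF4, 0.70 for EIF2 and 0.94 for eIF2B. That scaling divides all values of a library by the same number, so it could hardly change the order. Whether the groups differ was not tested.

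**Figure D3:**
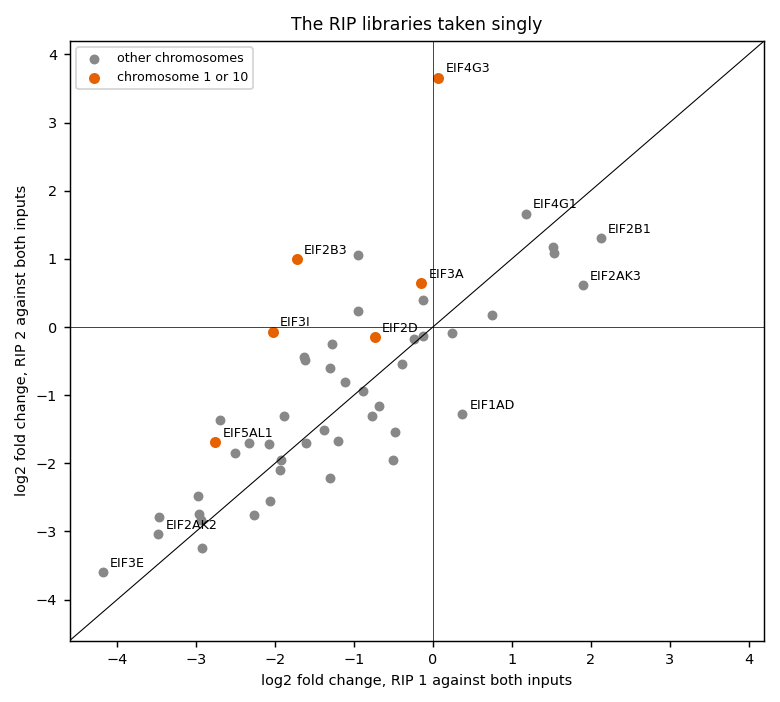
Log2 fold change of RIP 2 (vertical) and of RIP 1 (horizontal), each against both inputs, for the 50 genes tested, with genes on chromosomes 1 and 10 in orange and the line of equal values drawn. The inputs are shared by both axes, so the trend along the line is not evidence of replication. EIF4G3 stands off the line at 3.66 against 0.07, and EIF2B3 at 0.998 against -1.72.

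Genes outside chromosomes 1 and 10 gave similar counts. When those 10937 genes were fitted alone, 19 initiation factor genes were lower and 4 were higher, with EIF4G1 and EIF2AK4 added to EIF2B1 and EIF3J-AS1. EIF2B4 was lower there as well. Of all genes in that fit, 28.5% were lower and 16.6% were higher. Beyond chromosomes 1 and 10, the RIP libraries took opposite signs for 5 genes that the plot of single libraries shows in the upper left or lower right: EIF1AD, EIF2B5, EIF3C, EIF3L and EIF5B.

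Lower initiation factor transcripts had shorter coding regions. Across the 49 protein-coding genes tested, the log2 fold change and the coding length had a Spearman correlation of 0.58 (Pearson 0.59 on log2 length), against a Spearman value of 0.36 over 10852 protein-coding genes. The Spearman value was 0.475 with RIP 1 alone and 0.574 with RIP 2 alone. Over the 43 of these genes outside chromosomes 1 and 10 it was 0.50. The points share the 4 libraries, and copies such as EIF3C and EIF3CL share reads. Of 17 genes with a coding region under 1000 bases, 10 were lower, where 38.6% of all protein-coding genes of that length were. Of 20 genes from 1000 to under 2000 bases, 8 were lower, against 15.1%. Of 12 genes with 2000 bases or more, 1 was lower, EIF4G2, against 5.79%. The bounds were chosen after the values were seen.

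**Figure D4:**
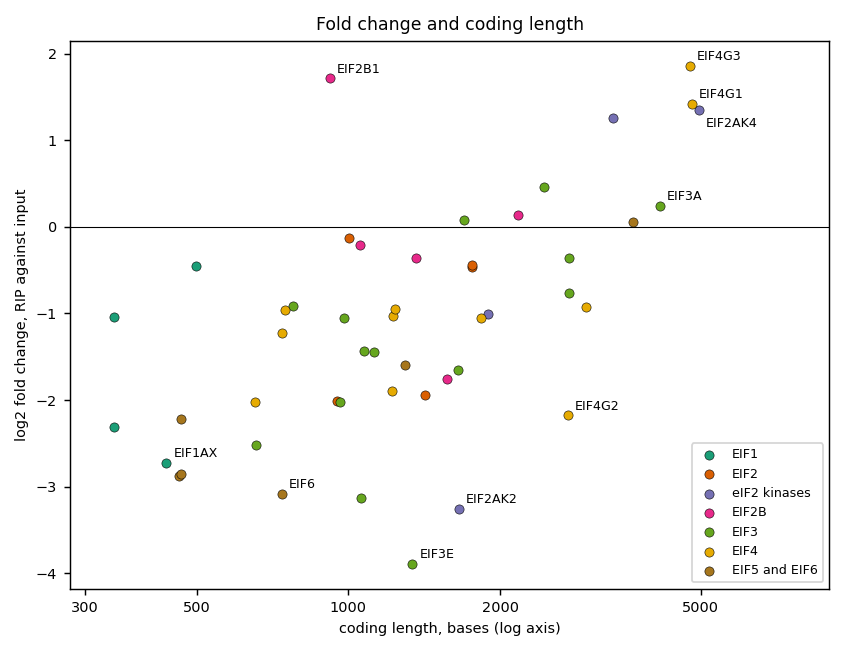
Log2 fold change of RIP against input by coding length (bases, log axis) for the 49 protein-coding initiation factor genes tested, coloured by group. EIF4G1, EIF4G3, EIF2AK4 and EIF3A lie at the long end above 0, and EIF4G2 and EIF2B1 lie apart from the trend, at -2.18 and 1.72. With RIP 1 alone EIF4G3 (chromosome 1) lies at 0.07 and EIF3A (chromosome 10) at -0.15.

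Other features had smaller correlations with the fold change. The Spearman correlation over the 49 genes was 0.26 for the whole mRNA length (0.35 over all protein-coding genes) and -0.09 for the 3′ UTR length (0.22 over all). For GGAC, a core of many m6A sites, the number per kilobase of coding region had a value of 0.26 (0.14 over all). For the wider m6A consensus DRACH (a base other than C, then A or G, then AC, then a base other than G), it was -0.05 (-0.04 over all). Over the whole mRNA the values were 0.32 for GGAC (0.18 over all) and 0.19 for DRACH (0.04 over all). Motif counts were read on the sense strand of 1 transcript a gene and say nothing of methylation in these cells.

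The level in input also went with the fold change. Its Spearman correlation with the log2 mean input FPKM was -0.39 over 50 genes and -0.45 over 10852 protein-coding genes, and since input enters both quantities, part of such a relation is built in. Among protein-coding genes at 100 FPKM or more in input, 61.2% were lower in RIP, and 8 of the 11 initiation factor genes at that level were. From 30 to under 100 FPKM the share was 38.3%, with 5 of 16 initiation factor genes, and from 10 to under 30 it was 23.7%, with 6 of 17. Below 10 FPKM it was 8.47%, with 0 of 5 (0 also at an unadjusted p under 0.05). Initiation factor transcripts were abundant, with a median log2 mean input of 5.02 against 3.44 for protein-coding genes, so their 19 lower calls stand against a higher background than the 24.3% of all genes.

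**Figure D5:**
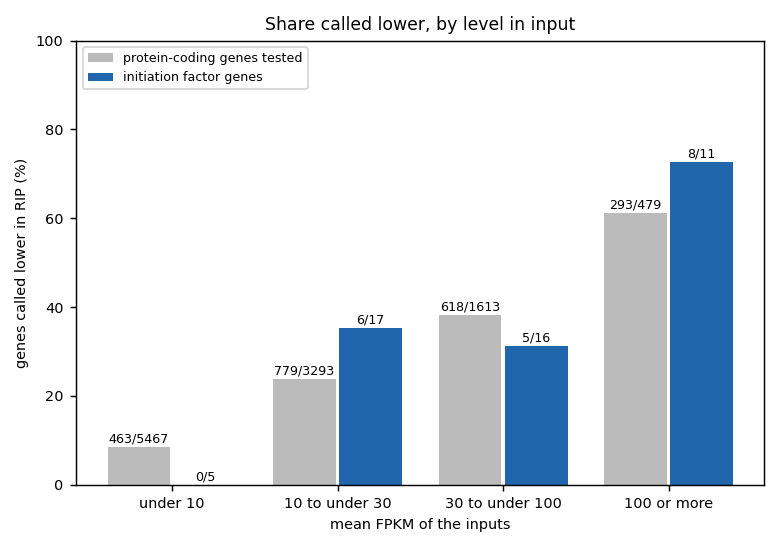
Share of genes called lower in RIP (%, limma, adjusted p under 0.05) by mean FPKM of the inputs, for all protein-coding genes tested (grey) and initiation factor genes (blue), with the counts above each bar. The grey bars go from 8.47% to 61.2%, and the blue bars lie above them in 2 of the 4 bands.

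Pseudogenes carry sequence of several of these genes. Of the 72 left out, 29 were tested, 13 were lower and 0 were higher (0 at an unadjusted p under 0.05). Of all genes tested 24.3% were lower and 15.4% higher, and of protein-coding genes 19.8% and 16.8%. Genes outside the protein-coding class, such as pseudogenes, were thus lower more often than those in it. Of the 29, 26 had the same sign as the parent gene and 27 were within 1 log2 unit of it. EIF4EP2, a copy of EIF4E named here after its values were seen, stood at 42.9 and 38.1 FPKM in input, above EIF4E itself, and at 6.24 and 7.30 in RIP. Of the genes with a call, EIF5A shared 31.7% of its 50-base stretches with other genes, EIF4A1 29.1%, EIF2S3 23.2% and EIF3E 16.3%, so their levels depend on how the authors' counting split such reads. EIF3F, which was not called, shared 46.9%.

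Regulators and cofactors of initiation, a list of 35 genes chosen with earlier results of these data known, held calls in both directions. Of 34 tested, 4 were higher and 10 lower, where 15.4% and 24.3% of all genes were, with a median of -0.68. Both shares are near those of all genes. The gene of the list with the highest fold change was PPP1R15B, the constitutive partner of the phosphatase that reverses eIF2 phosphorylation, with 37.2 and 27.8 FPKM in input and 202 and 276 in RIP. It rose by 2.84 (SE 0.49, adjusted p = 0.0117), and although it lies on chromosome 1, it was above the inputs in both RIP libraries. LARP1, which binds TOP mRNAs, rose by 1.78 (SE 0.45, adjusted p = 0.0270), from 34.7 and 35.5 FPKM to 131 and 115. Neither RIP library of PPP1R15B or LARP1 overlapped the inputs. RPS6KB1, the S6 kinase downstream of mTOR, rose by 1.73 (SE 0.45, adjusted p = 0.0284), from 11.6 and 10.7 FPKM to 43.9 and 35.1, and RPTOR, the scaffold of the mTOR complex that controls TOP mRNAs, was the other gene called higher.

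The 3 lower regulators with the smallest p were DENR, PAIP1 and PAIP2. DENR, a recycling and re-initiation factor, had 86.3 and 76.6 FPKM in input and 9.14 and 7.18 in RIP, and fell by 3.18 (SE 0.45, adjusted p = 0.00890). PAIP1 and PAIP2 bind the poly(A)-binding protein and respectively promote and repress translation. PAIP1 fell by 3.28 (SE 0.48, adjusted p = 0.00910), from 47.0 and 42.4 FPKM to 4.71 and 2.89. PAIP2 fell by 3.21 (SE 0.50, adjusted p = 0.00989), from 92.5 and 85.3 FPKM to 12.2 and 6.15. MCTS1, the partner of DENR, also fell, as did DHPS, an enzyme that makes hypusine on eIF5A, ABCE1, DDX3X, IMPACT, RPS6KB2 and EIF4EBP2. MCTS1 (25.9 and 36.6 FPKM in input, 2.66 in RIP 1) and RPS6KB2 (19.9 and 15.4 in input, 5.82 in RIP 1) were listed at 0 in RIP 2, the shallowest library, so the size of their fitted change depends on the pseudocount. They are named for that 0, after their values were seen.

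Elongation and release factors, a list of 22 genes, held 1 higher and 5 lower of 21 tested, where 15.4% and 24.3% of all genes were, with a median of -0.73. The share lower is near that of all genes. EEF1B2, a nucleotide exchange subunit of the elongation factor eEF1, had 266 and 257 FPKM in input and 26.4 and 10.6 in RIP, and fell by 3.88 (SE 0.57, adjusted p = 0.00910). EEF1G, of the same complex, fell by 2.25 (SE 0.52, adjusted p = 0.0209), from 412 and 454 FPKM to 98.7 and 82.4. EEF1E1 had 40.5 and 58.8 FPKM in input and 5.02 in RIP 1, was listed at 0 in RIP 2 and was called lower (adjusted p = 0.0152), and EEF1A1 and MTIF2 fell too. MTIF2 is an initiation factor of mitochondrial translation, not an elongation or release factor. PELO, which rescues stalled ribosomes, had 7.54 and 10.54 FPKM in input and 52.9 and 42.9 in RIP, and rose by 2.29 (SE 0.46, adjusted p = 0.0155). Both RIP libraries were far above both inputs for PELO, and far below them for EEF1B2.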

How the data were processed

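Input and YTHDF3 RIP (2 libraries each) were grouped by their titles, and the numbers 1 and 2 follow accession order. Input 1 and RIP 1 also share a title suffix, as do input 2 and RIP 2, and the labels do not explain it. The authors deposited a table with 1 column per library. Its unit is unnamed, and the deposited values behave as FPKM, reads scaled by the authors to gene length and library total: they are not whole, and multiplied by exon length in kilobases they sum to 1566173 to 1733992 per library. HISAT2 and GRCh38 (hg38) are named in the submitters' processing notes, and the kit is stranded per the labels' protocols. Counting program, annotation and strand setting were not given in the sources used here. Such scaling fixes the total of a library, so a large group of reads, such as that on chromosome 1 in RIP 2, lowers the other values.

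Of 36217 rows, 14 repeated identifiers were dropped. Relative depth was set by taking the commonest low value as 1 read per gene. As only 36.4% to 39.0% of low values were whole within 0.03 of a read, reads were not recovered, no count test was run and no counting interval is given. Genes at 1 FPKM or more in 2 of 4 libraries (12848) were compared on log2(FPKM + 1) with limma 3.58.1 (trend, no block) in R 4.3.3, with Benjamini-Hochberg adjustment over those genes and a threshold of 0.05. A fold change on this scale understates that of low genes. An exact permutation of 4 libraries cannot go below p = 0.333. Tested on simulated data (11822 genes, 200 changed), 61.4% of the changes by 4-fold and 98.2% of those by 8-fold were called, 1 call was false and 0 had the wrong sign. The simulated noise was normal, with the same spread for every gene of a group, and held no excess on chromosome 1. These rates therefore need not hold for the real libraries. Gene models came from GENCODE 29 and start sites from RefSeq, Python 3.11.15 with pandas 2.3.3 and scipy 1.17.1.

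Members and lists were chosen with earlier results of these data known. Values are printed for all genes called, and for the highest and lowest of each group. From the 2 fixed lists, up to 3 genes per direction by smallest p are described. Alternatives were another pseudocount, no filter, 2 other scalings, a replicate block, leaving out each library, and leaving out chromosomes 1 and 10. Scaling to equal summed FPKM, over all or protein-coding genes, was added after seeing the data. The inputs correlated at 0.944 and the RIP libraries at 0.824 across genes.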

Additional observations from a re-analysis of the deposited data

How the results depend on the processing

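Counts below are genes called by limma, and medians are log2 fold changes. Over all genes, 718 were higher without a filter and 3085 under quantile normalization, against 1981. Initiation factor genes called higher numbered 1 with a pseudocount of 0.1, 0 without a filter (4 at an unadjusted p under 0.05), 4 with the replicate block and 4 outside chromosomes 1 and 10, and the block added EIF2AK4 (adjusted p = 0.0465) and EIF4G1 (adjusted p = 0.0462). Of the kinases 1 was higher with the block and 1 outside those chromosomes. Of eIF2B 0 were higher without a filter, and 1 was lower under quantile normalization, with size factors and outside those chromosomes. Of eIF4 1 was higher under quantile normalization, with the block and outside those chromosomes, 0 were lower without a filter and 1 under quantile normalization. The EIF2 median was -1.20 outside those chromosomes, where EIF2D is absent. Of the regulators 6 were lower with a pseudocount of 0.1 and 6 without a filter. Of the elongation factors 2 were higher under quantile normalization and with size factors, 3 were lower without a filter, 3 under quantile normalization and 8 with size factors. The causes were not tested.

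With equal summed FPKM over all genes, chosen after seeing the data, the counts were 4596 higher and 1552 lower over all genes, 6 and 7 for initiation factors, 1 lower for EIF1, 0 lower for EIF2, 2 higher for the kinases, 1 higher and 2 lower for eIF3, 1 higher and 0 lower for eIF4, 3 lower for EIF5 with EIF6, 9 higher and 4 lower for regulators, and 4 higher and 2 lower for elongation factors. The medians were -0.55 for EIF1, 0.70 for EIF2, 1.24 for the kinases, 0.94 for eIF2B, -0.059 for eIF3, 0.10 for eIF4 and -1.39 for EIF5 with EIF6. The sign changed for EIF1 (0.15), EIF1AD (0.67), EIF2A (0.72), EIF2AK1 (0.12), EIF2B2 (0.94), EIF2B3 (0.71), EIF2D (0.70), EIF2S2 (1.07), EIF3C (0.81), EIF3CL (0.39), EIF3I (0.15), EIF3J (0.24), EIF4A2 (0.16), EIF4A3 (0.22), EIF4B (0.10) and EIF4H (0.21). With the sum over protein-coding genes, the EIF2 median was -0.28, EIF2S2 lay at 0.057, 1 eIF4 gene and 2 elongation factors were higher. The alternative's own scaling raises all RIP values against the inputs.

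Leaving out each library in turn gave these ranges, with every lower end of a count from leaving out an input: all genes 0 to 3515 higher and 0 to 3933 lower, initiation factors 0 to 5 and 0 to 24, EIF1 0 to 3 lower, EIF2 0 to 2 lower, kinases 0 to 2 higher and 0 to 2 lower, eIF2B 0 to 1 higher and 0 to 1 lower, eIF3 0 to 7 lower, eIF4 0 to 2 higher and 0 to 6 lower, EIF5 with EIF6 0 to 5 lower, regulators 0 to 7 higher and 0 to 12 lower, and elongation factors 0 to 3 higher and 0 to 10 lower. A lone library was assumed to vary like the other group. The medians ranged from -0.74 to -0.47 for EIF2 and from -2.84 to -2.22 for EIF5 with EIF6. They ranged from -0.24 to 0.39 for eIF2B and from -0.47 to 0.52 for the kinases, so both changed sign. So did EIF1AD (-1.28 to 0.37), EIF2B3 (-1.72 to 1.00), EIF2B5 (-0.12 to 0.39), EIF2S2 (-0.29 to 0.039), EIF3A (-0.15 to 0.64), EIF3C (-0.95 to 0.24), EIF3L (-0.10 to 0.26) and EIF5B (-0.94 to 1.05), of which EIF2B3 was called lower without RIP 2 (adjusted p = 0.0252). Same-numbered libraries deviated together with a correlation of 0.214 across genes, but with 2 pairs the numbers are not shown to pair the samples. With the block, 19 lower calls remained. RIP 2, the shallowest library, limits what low genes can show.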
